A study of Saccharomyces cerevisiae with 5 samples.

Results

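DBP2 (YNL112W) encodes an RNA helicase of the DEAD-box family in Saccharomyces cerevisiae and was 1 of 5583 genes named on the arrays. It was chosen from earlier results on these arrays, in which its ratio was among the highest, so its ratios are a description and carry no test. Its members are all spots that carry the gene's name in the platform annotation, 1 spot on the first array design and 2 spots on the second. In the R64 annotation the gene spans chromosome XIV from position 413639 to 416281, a length of 2643 bases that includes its intron.

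DEAD-box proteins unwind or remodel short RNA duplexes and strip proteins from RNA with the energy of ATP. Dbp2 acts on RNA in the nucleus, binds Yra1 and helps to load Yra1 and other export proteins onto new transcripts. Yra1, in turn, restrains its helicase activity. DBP2 and YRA1 are also alike in gene structure, since each holds a long intron through which its protein limits its own production.

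RNA that came down with zzYra1, a tagged form of the export adaptor Yra1, was set against total RNA on 5 spotted arrays with a pair of channels each. The immunoprecipitated (IP) RNA occupied channel 1 of arrays 1 and 3, while on arrays 2, 4 and 5 it occupied channel 2. Arrays 1 and 2 used the first design (7680 spots) and arrays 3, 4 and 5 the second (12800 spots). The labels give no strain, genotype, culture or growth condition, and a mock precipitation was not analysed here.

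Values are log2 ratios centred on the median of their own array, so 0 stands for the median spot. Which channel is on top in the deposited ratio is not stated in the sources used here. "Higher" and "lower" refer to the ratio as deposited, not to the IP. Between 3722 and 7591 spots per array had a value, and the SD of the spots was smallest on array 2 (0.848) and largest on array 5 (2.30). Arrays 1 and 2, a possible dye swap, were averaged as replicate 1, and arrays 3, 4 and 5 were replicates 2, 3 and 4. The titles of arrays 1 and 2 share a number code, and arrays 3, 4 and 5 each have another. What the code means is not stated, and it cannot be told apart from the array. The labels do not say whether the arrays came from separate cultures, so spreads cover these arrays only, and their small number limits the precision.

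DBP2 had a high ratio on 4 of the 5 arrays and lay slightly below the median on the other. Its log2 ratios were 1.87, -0.26, 4.52, 2.09 and 4.08 on arrays 1 to 5. Both arrays with the IP RNA in channel 1 were high, as were 2 of the 3 with it in channel 2. The value on array 2 stood alone, and it came from the same design, and the same spot, as that on array 1.

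Ranks within arrays do not depend on an array's spread. DBP2 was gene 3 from the top of 2705 on array 3, a percentile of 99.9, and gene 41 of 5541 on array 1, a percentile of 99.3. It was gene 62 of 1717 on array 5, a percentile of 96.4, and gene 166 of 3196 on array 4, a percentile of 94.8. On array 2 it was gene 2581 of 3845, a percentile of 32.9. The order of the arrays by rank thus differed from that by ratio.

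**Figure D1:**
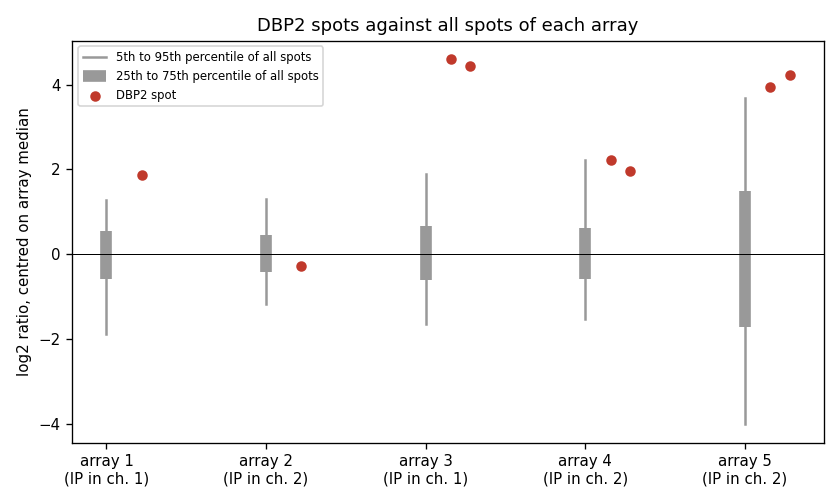
Log2 ratio of each DBP2 spot (red points) by array, beside the range of all spots on that array (thick grey bar, 25th to 75th percentile; thin grey line, 5th to 95th percentile). The spots of arrays 3 and 5 lie above the 95th percentile line, as does that of array 1, those of array 4 lie near its upper end, and the spot of array 2 lies just below 0.

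With the ratios as deposited, the mean log2 ratio of DBP2 over the 4 replicates was 2.87 ± 1.74 (SD, n = 4). The replicate values were 0.80, 4.52, 2.09 and 4.08. If the deposited ratio runs by channel, the mean joins IP over total with total over IP, also within replicate 1. As deposited, 1 of the 703 genes measured in all 4 replicates had a higher mean. The second design alone gave 3.56 ± 1.30 (SD, n = 3). The mean depended on how the ratios run. With the ratio turned on the arrays that had the IP RNA in channel 2, it was -0.15 ± 3.76 (SD, n = 4), with 2 replicates above and 2 below 0, and gene 403 from the top of the 703. As deposited, the 2 arrays with the IP RNA in channel 1 averaged 3.20, and the 3 with it in channel 2 averaged 1.97 and ranged from -0.26 to 4.08. The sign of each average still depends on the direction of the ratio. How far arrays that share a channel agree does not depend on it. The channel 1 arrays, at 1.87 and 4.52, lay on the same side of 0, and the channel 2 arrays did not.

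With the ratios as deposited, no gene of the 703 passed limma's test against 0 after Benjamini-Hochberg adjustment at 0.05, which is 0% of those tested. At an unadjusted p under 0.05 there were 55. In the trend and robust form of limma's eBayes also 0 passed, and 19 lay under that p. Turning the channel 2 arrays gave 0 passed and 17 under that p. As deposited, of 475 genes with a value on all 5 arrays, 5 genes (1.05%) were in the top 10% on at least 4 arrays. DBP2 was one of them. The others were NAB3, which encodes an RNA-binding protein of transcription termination, and the ribosomal protein genes RPL19B, RPL21A and RPS21B. No gene was in the top 10% on all 5 arrays. With the channel 2 arrays turned, none of the 475 genes (0%) was in the top 10% on at least 4 arrays, and DBP2 was there on 2, with percentiles of 5.16 on array 4 and 3.55 on array 5. These 4 other genes and the limit of 10% were chosen after the values were seen.

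On arrays 1 and 2 the single DBP2 spot gave ratios 2.14 apart on the log2 scale. The median gap between these arrays was 0.69 over 3814 genes, and 92.3% of the genes had a smaller gap than DBP2. The deposited log10 ratios at this spot were -0.822 on array 1 and 1.26 on array 2, against array medians of -1.39 and 1.34. Across genes, which are not independent, Pearson's correlation of these arrays was 0.0077. All these values are for the ratios as deposited, with the IP RNA in opposite channels on the 2 arrays. If the ratio runs by channel, the gaps of DBP2 and of the other genes would differ from those given.

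The second design carries DBP2 in 2 spots with consecutive numbers, and these agreed closely. They read 4.61 and 4.43 on array 3, 2.21 and 1.96 on array 4, and 3.93 and 4.23 on array 5. The differences of 0.17, 0.25 and 0.30 were below the median differences between the spots of 1 gene, which were 0.44, 0.34 and 0.41 on the same arrays. The paired spots were not ordered alike, since the first was the higher one on arrays 3 and 4 and the lower one on array 5.

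Agreement of side-by-side spots was, however, a property of the slide as well as of the gene. Spots of different genes with consecutive numbers correlated at 0.52 on array 3 (1209 pairs), 0.26 on array 4 (1710 pairs) and 0.74 on array 5 (1042 pairs). Spots of the same gene correlated at 0.79, 0.86 and 0.92. These are Pearson correlations across spots that share a slide, and they are given as a description. The spots of DBP2 on 1 array are therefore not independent readings.

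The spot numbers also held a trace of the printed layout. Spearman's rank correlation between spots fell with their distance in number and rose again at a distance of 20, to 0.44, 0.18, 0.37, 0.25 and 0.58 on arrays 1 to 5. At a distance of 10 the values were 0.19, 0.014, 0.052, 0.084 and 0.51. Beyond a distance of 8, up to 60, the highest value lay at 20 on each of the 5 arrays. Rows of 20 spots were taken from this pattern, which was noticed in the data, as the layout itself is not stated in the sources used here. DBP2 then sits at position 12 of its row on the first design, and its first spot at position 13 on the second.

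**Figure D2:**
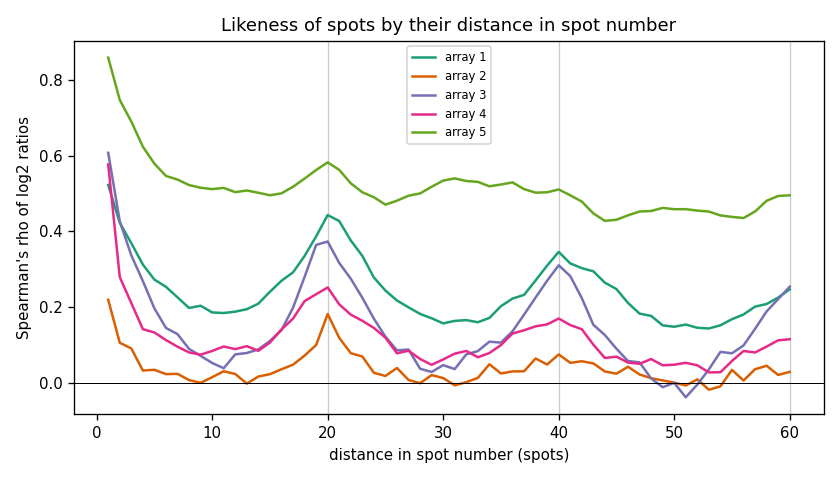
Spearman's rank correlation between the log2 ratios of spots (y axis) by their distance in spot number (x axis), with a line for each array and grey lines at 20, 40 and 60. The curves rise again at 20 on all 5 arrays, to between 0.18 and 0.58.

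In its row on the second design, DBP2 was the top of a slope on arrays 3 and 5. The spots before it belong to TDA7 and RHO5, and the spots after it to DMA2 and SLM2. On array 5 the readings climbed from 3.27 and 3.45 (TDA7) to 3.78 and 3.79 (RHO5) and then to DBP2. The next spots fell to -2.26 and -1.95 (DMA2), and those of SLM2 were at -3.48 and -3.01. On array 3 the readings were 1.37 and 2.03 (TDA7) and 3.30 and 3.77 (RHO5) before DBP2, and 0.21 and 1.05 (DMA2) after it. TDA7, DMA2 and SLM2 were named for their place beside DBP2, after their values were seen.

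The height of DBP2 over its row therefore depended on the side. Against the median of up to 4 measured spots before it, it stood 1.91, 1.85, 1.39 and 0.47 higher on arrays 1, 3, 4 and 5. Against those after it, the gaps were 1.48, 3.96, 2.19 and 6.72. On array 2 it lay below both sides, with differences of -0.38 and -0.61. The part of slide position in the high values was not tested. The corrections that follow subtract a median over a wider area, which need not follow a short slope within a row.

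**Figure D3:**
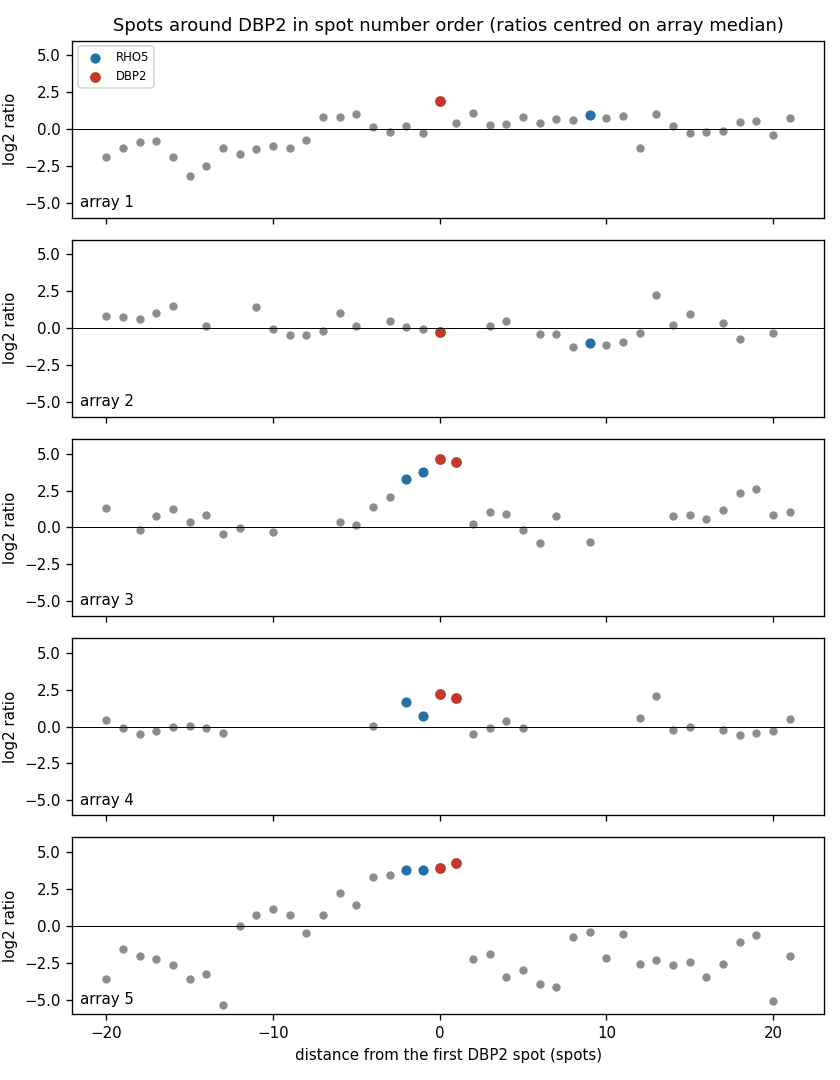
Log2 ratio (y axis, centred on the array median) of each measured spot from 20 before to 20 after DBP2 in spot number (x axis), 1 panel per array. DBP2 is red, RHO5 blue and other spots grey. On arrays 3 and 5 the spots before DBP2 rise towards it and the next spots lie lower, at 0.21 on array 3 and -2.26 on array 5.

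DBP2 stood above its wider surroundings on all arrays but array 2. The gene was chosen for its high ratios, so few spots of any area could exceed it on those arrays. The surrounding spots are those within 2 rows and 2 positions, with its own spots left out. Their medians were -0.38, 0.12, 0.74, -0.13 and -1.99 on arrays 1 to 5. On arrays 1, 3, 4 and 5, respectively 24, 26, 19 and 28 surrounding spots had a value, and none of them reached the lower DBP2 spot. The highest of them was RHO5 on arrays 3, 4 and 5. Among all spots of arrays 1, 3, 4 and 5, the lower DBP2 spot ranked 76 of 7591, 7 of 4884, 388 of 6143 and 143 of 3722. On array 2, 11 of 15 surrounding spots were above DBP2.

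With the median of its own surroundings subtracted from every spot, the log2 ratios of DBP2 were 2.25, -0.39, 3.76, 2.19 and 5.97 on arrays 1 to 5. Its ranks were then gene 12 of 5541, 2818 of 3839, 7 of 2559, 120 of 3084 and 7 of 1522. The mean over replicates was 3.21 ± 2.17 (SD, n = 4). A running median over 81 spots, subtracted in the same way, gave 3.23 ± 2.32 (SD, n = 4). Array 2 stayed below 0 in both cases, at -0.39 and -0.24. On array 5 only 2 of the 28 surrounding spots were above 0. There DBP2 moved up from 4.08 to 5.97 and, with the running median, to 6.25. Neither correction removed the high run of TDA7 and RHO5 beside it, so neither tests the part of slide position. The correction by surrounding spots was chosen after the data were seen. DBP2 was chosen for its high ratios, so the corrected values and ranks are a description too.

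**Figure D4:**
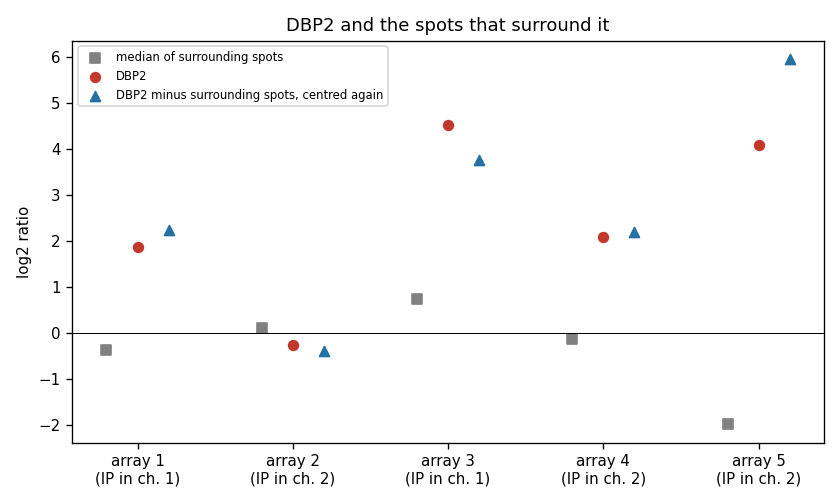
Log2 ratio (y axis) by array of DBP2 (red points), of the median of its surrounding spots (grey squares) and of DBP2 with the surroundings of each spot subtracted and the array centred again (blue triangles). The triangles lie at 2.25, -0.39, 3.76, 2.19 and 5.97 on arrays 1 to 5.

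The genes whose pattern over the 5 arrays was most like that of DBP2 were sought among the 474 others with a value on every array. Likeness was the root mean square difference of the within-array percentiles. RPS21B, a ribosomal protein gene of the small subunit, came first at 6.43 percentile points, followed by VAC7, whose product regulates a vacuolar phosphoinositide, at 11.1. RHO5 followed at 12.9. TEF2, a gene for the translation elongation factor that brings tRNAs to the ribosome, had 13.0, and SFP1, a transcriptional activator of ribosomal protein genes, 16.4. The median gene differed from DBP2 by 49.5 points. RPS21B had log2 ratios of 1.02, -0.09, 1.82, 2.65 and 3.48 on arrays 1 to 5. On array 2 its percentile was 43.7, against 32.9 for DBP2. With the surrounding spots subtracted, RPS21B differed from DBP2 by 22.3 percentile points.

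By difference of the log2 ratios themselves, RHO5 came first at 0.82, and RPL1B, RPL21A, TEF2 and RPL7B followed at 1.15, 1.20, 1.22 and 1.27, against 3.08 for the median gene. The last group adds 3 ribosomal protein genes of the large subunit. RHO5 read 0.96, -1.02, 3.54, 1.17 and 3.78 on arrays 1 to 5. It lay below DBP2 on each of the 5 arrays, by 0.92, 0.76, 0.98, 0.92 and 0.30. RHO5 is the next gene to DBP2 by spot number on the second design and lies 9 spots away on the first, whereas RPS21B lies 4905 spots away on the first and 4929 on the second.

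The nearest genes on the chromosome had ratios well below that of DBP2 in the mean, a difference that was not tested. RPC19, the next gene on the left and a shared subunit of RNA polymerases I and III, had log2 ratios of 1.17, 0.31, -0.06, -0.006 and -0.82 on arrays 1 to 5. YNL115C, the next beyond it, averaged -1.19 ± 2.09 (SD, n = 3). It read 1.11, -0.57, -0.26 and -3.58 on arrays 1, 2, 3 and 5. On array 1 both of these genes were high, at percentiles of 94.5 (RPC19) and 93.4 (YNL115C). On the right, CYB5, the cytochrome b5 gene, averaged -0.99 ± 1.72 (SD, n = 3). NOP15, a ribosome biogenesis gene, averaged -0.55 ± 0.16 (SD, n = 2). All 4 means were below 0, and all 4 lay below that of DBP2. Over all genes, 2561 of 5582 had a mean above 0, and 4 had a mean above that of DBP2.

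Of the other 25 DEAD-box helicase genes, 6 were in the top 10% of genes on 1 array. SUB2 was there on 2 arrays, and none was there on 3 or more. By definition, about 10% of all genes measured on an array lie in that range. The DEAD-box genes had 25, 19, 13, 15 and 9 values on arrays 1 to 5. The counts are a description and set no contrast between DBP2 and its family. All 25 had a value on at least 1 array, but none had one on all 5, and only TIF2 and DBP3 entered the fit over all genes. TIF2, one of the genes for translation initiation factor eIF4A, averaged 0.70 ± 0.54 (SD, n = 4). DBP3, which acts in ribosome biogenesis, had 0.065 ± 1.10 (SD, n = 4). Neither passed (0 of 2, against 0% of all genes tested). The mean lay above 0 in 12 of the 25, against 2561 of all 5582 measured genes. The median was -0.0066, against -0.063 over all measured genes.

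Outside array 2, no DEAD-box gene exceeded DBP2 on more than 1 array. DBP2 was chosen for its high ratios, so few genes of any list could exceed it there. Over all genes, 40 of 5541, 2 of 2705, 165 of 3196 and 61 of 1717 did so on arrays 1, 3, 4 and 5. SPB4, a ribosome biogenesis helicase gene, had 2.25 on array 1 and was the 1 DEAD-box gene above DBP2 there. DRS1 had 3.42 and MRH4 2.21 on array 4, and DBP8 4.24 on array 5. On array 3 none of the 13 measured members exceeded DBP2, and the highest was TIF2 at 1.23. On array 2, 10 of 19 members were above DBP2, as were 2580 of all 3845 genes. The spread of these genes between arrays was wide: DRS1 read -2.38 on array 1, and DBP8 read -1.90 there.

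**Figure D5:**
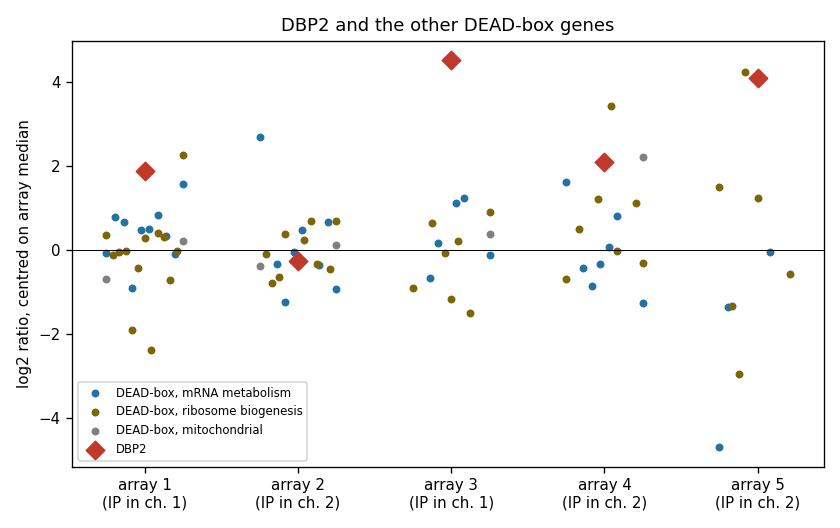
Log2 ratio (y axis, centred on the array median) by array of DBP2 (red diamonds) and of the other DEAD-box genes (points: blue for mRNA metabolism, brown for ribosome biogenesis, grey for mitochondria). Apart from array 2, at most 2 points per array lie above the diamond. DBP2 was chosen for its high ratios, so few genes of any kind lie above it there.

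By role, the 10 DEAD-box genes of mRNA metabolism had a median of -0.18, from TIF2 down to DBP1, which encodes a relative of the initiation helicase Ded1, at -0.59 ± 0.65 (SD, n = 3). The 13 of ribosome biogenesis had a median of 0.11. DBP8, which acts in small subunit assembly, was highest at 1.74 ± 3.53 (SD, n = 2) and DBP7 lowest at -0.88 ± 1.86 (SD, n = 3). Both mitochondrial members were measured, MRH4 at 0.92 ± 1.13 (SD, n = 3) and MSS116, which aids intron splicing there, at -0.53 (1 replicate). SUB2 is of interest because its protein, like Dbp2, is a DEAD-box partner of Yra1. It read -0.07, 2.70, 1.61 and -4.69 on arrays 1, 2, 4 and 5, with no value on array 3. Where DBP2 was low, on array 2, SUB2 was the highest DEAD-box gene, and on array 5 it was the lowest. SUB2 was named for this after its values were seen.

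YRA1, the gene of the tagged protein, had values on 2 arrays, 0.12 on array 1 and -0.014 on array 3, and lay near the array median where DBP2 was in the top 1%. Of the 26 genes for mRNA export factors and partners of Yra1, 25 were measured, 10 had a mean above 0, and the median was -0.11. Over all genes, 2561 of 5582 had a mean above 0, and the median was -0.063. NPL3, an RNA-binding shuttling protein gene, was highest at 1.04 (values of 1.03 on array 1 and 1.04 on array 4). SAC3, the scaffold of the export complex at the nuclear pore, was lowest at -2.43 ± 3.80 (SD, n = 2), with -5.11 on array 5. None of the 3 tested members passed (0 of 3, against 0% of all genes tested). Outside array 2, no member exceeded DBP2 on any array. Few genes of any kind did so, namely 40 of 5541, 2 of 2705, 165 of 3196 and 61 of 1717 on arrays 1, 3, 4 and 5. With 25, 8, 10 and 9 members measured there, the absence is no result about export genes.

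The nonsense-mediated decay gene NAM7, whose product is the helicase Upf1 and a partner of Dbp2, averaged 0.021 ± 0.33 (SD, n = 3). NMD2 was highest of these 3 genes at 2.01 ± 1.99 (SD, n = 3) and UPF3 lowest at -1.05 ± 1.05 (SD, n = 2). NMD2 was high on arrays 4 and 5 alone, at 2.50 and 3.71. None of the 3 was measured in all replicates, so none was tested.

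Of 6 other genes whose introns take part in control of their own expression, 3 had a mean above 0. Over all genes it was 2561 of 5582. RPS14B was highest at 1.16 ± 0.80 (SD, n = 4) and RPS9A lowest at -1.58 (1 replicate). RPS14B and RPL30, both tested, did not pass (0 of 2, against 0% of all genes tested), and RPL30 averaged -0.18 ± 1.18 (SD, n = 4). RPS14B read 0.06, -0.12, 1.58, 1.65 and 1.45 on arrays 1 to 5, with a percentile of 53.5 on array 1, where DBP2 was at 99.3. YRA1 and DBP2, which share this kind of intron, thus differed by 1.76 on array 1 and 4.53 on array 3, the arrays that measured both.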

How the data were processed

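Each deposited value is a log10 ratio between the channels of 1 spot, and how it was made is not stated in the sources used here. The base of the logarithm follows from the numbers. Each printed value was turned into the simplest fraction that gives its decimals, which had terms of at most 65535 and a product under 100000000 for 32.0% (array 3) to 93.5% (array 4) of the values with base 10. With base 2 the share was at most 2.47% and with base e at most 3.14%. Direction and centring are not given. The median deposited log10 ratio was -1.39 and -0.85 on arrays 1 and 3, which had the IP RNA in channel 1. It was 1.34, 0.30 and -0.14 on arrays 2, 4 and 5, which had it in channel 2. In the same order, 0.040% and 1.84% of the spots were above 0, and then 99.9%, 86.8% and 41.6%. Whether these medians follow from the direction of the ratio was not tested.

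Here the values were put on the log2 scale and centred on each array's median, and the spots of a gene were averaged. Of the spots, 6695 and 11138 carried 1 gene in GEO's platform annotation (which is old), and none several. The remaining 985 and 1662 had no name here. RefSeq R64 gave current symbols and held 5578 of 5583 and 5534 of 5539 gene identifiers. DBP4 appears there as HCA4, and SUS1 was not analysed here. Genes with a value in all 4 replicates were fitted with limma 3.58.1 in R 4.3.3 (statmod 1.5.0), and the fit was tested on simulated data. Python 3.11.15 with numpy 2.4.6, pandas 2.3.3 and matplotlib 3.10.9 was used otherwise. A percentile is the share of the other genes of the array with a lower ratio.

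DBP2, the lists, the tests and the naming rule were chosen with earlier results of these data known. The rule named DBP2, YRA1, the 5 genes most like DBP2, the extremes of each list and the 2 genes to either side on the chromosome. Protein sequences were not used here, so likeness of the helicases by sequence is not given. Alternatives changed the replicate unit, direction, centring, scaling, slide position, averaging of spots, genes tested and arrays.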

Additional observations from a re-analysis of the deposited data

Results flagged for a closer look

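The percentile of DBP2 was 32.9 on array 2, against 94.8 to 99.9 on arrays 1, 3, 4 and 5. The gap was past Dixon's critical value at 95%, which is given as a description, since DBP2 was chosen on these ratios. The replicate value of RPS14B on arrays 1 and 2, -0.029, stood apart by the same measure from the other 3 replicates, which read 1.58, 1.65 and 1.45. These were 2 of 11 sets of values examined. A chance rate of about 1 in 20 holds only for normal values of genes not picked by their ratios. DBP2 was picked that way and RPS14B was named as the highest of its list, so the rate does not apply to them. The gap of DBP2 also depends on direction. With the sign changed on arrays 2, 4 and 5, its percentiles on arrays 1 to 5 were 99.3, 67.1, 99.9, 5.16 and 3.55. Array 2 then lay between the others.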

How the results depend on the processing

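The mean log2 ratio of DBP2 ran from 2.33 to 3.56 over 15 alternatives other than turning the ratios. Leaving out 1 replicate at a time gave the same limits, 2.33 (without replicate 2) and 3.56 (without replicate 1). Some alternatives could not move the mean, namely the median of spots and testing genes in at least 3 replicates (both 2.87). The second design alone is the same as leaving out replicate 1. With array 1 alone as replicate 1 the mean was 3.14, and with array 2 alone 2.61. Turning the ratio on the channel 2 arrays moved it to -0.15, by the change of sign on those arrays. In 17 alternative fits limma called 0 genes, with between 17 and 119 genes at an unadjusted p under 0.05. With the ratios as deposited, the percentile of DBP2 stayed between 99.0 and 99.8 on array 1, 26.6 and 33.8 on array 2, 99.8 and 99.9 on array 3, 93.7 and 96.1 on array 4, and 96.2 and 99.8 on array 5. Turned, it was 67.1, 5.16 and 3.55 on arrays 2, 4 and 5. The choice of centring shifts all values of an array alike, so it could not change a percentile. Of the 5 genes most like DBP2, 2 were shared with the list by log2 ratios (RHO5 and TEF2) and 2 with the list after removal of surrounding spots (RHO5 and VAC7), so the likeness list depends on these choices. SFP1 and TEF2 had no such value after that removal on at least 1 array. No paired analysis was possible because the arrays form 1 group, with both RNAs on each array. The small number of arrays, unmeasured spots and the unknown direction of the ratio limit all values given here.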
